A study of Rattus norvegicus with 18 samples.

Results

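Liver microRNAs (miRNAs) of obese rats given colesevelam were compared with those of lean rats, in 12 of the 18 small RNA libraries of the study. The libraries were chosen by their label alone, 6 labelled colesevelam and 6 labelled lean, and all rows of the deposited miRNA count table were used. The colesevelam group was obese Zucker diabetic fatty (ZDF) rats, strain ZDF-Leprfa/Crl, treated with colesevelam. The lean group carries the same strain name in the labels, has the phenotype label lean and names no agent, so which Lepr alleles the lean rats carried is not given in the sources used here. All rats were 8 weeks old. The remaining 6 libraries, from obese ZDF rats on vehicle at the same age, enter as values beside the comparison. Because the 2 groups differ in both phenotype and treatment, the effect of obesity and that of the drug cannot be told apart from this comparison alone. Separate animals are not stated for the libraries, and the 6 libraries of each group carry 4 different label numbers. The p-values therefore rest on the spread among libraries, part of which may be technical.

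A miRNA is a short RNA that guides a silencing complex to messenger RNAs, mainly through its seed, bases 2 to 8 counted from the 5′ end. Its precursor is a hairpin with a 5p and a 3p arm; usually one arm accumulates and the other, the minor arm, is mostly degraded. Several miRNA genes lie close together and are transcribed as one RNA. In obese ZDF rats the leptin receptor is defective, and the animals overeat and develop diabetes. Colesevelam stays in the intestine, where it traps bile acids. The liver then spends more cholesterol on bile acid synthesis, and SREBP-2, a factor that responds to low sterol, becomes active.

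The colesevelam libraries held 32936 to 122880 miRNA counts (median 58438.5) and the lean libraries 110353 to 881450 (median 184888). Colesevelam totals were 4.14-fold lower on the log2 scale (difference −2.05, two-sided exact permutation p = 0.00433, n = 6 and 6), and only 1 library of each group lay inside the range of the other. Depth and group therefore largely cannot be told apart. Levels are given as CPM, counts scaled to a common library total with TMM factors, which take most miRNAs as equal between libraries, so every change is relative to the other miRNAs of the same library. A count of 0 allowed up to 84.7 CPM in the shallowest colesevelam library and up to 3.94 CPM in the deepest lean one, for counting error only. The test covered 112 of the 401 rows, those with enough counts, which together made up 99.6% of all counts of the 12 libraries. The tissue label matched the data: miR-192-5p, a liver miRNA, took 26.0% of lean and 23.3% of colesevelam counts on average, and miR-122-5p, the classic hepatocyte miRNA, took 4.71% and 4.72%. Markers of muscle and neurons were near 0, with 18 lean and 2 colesevelam counts in all for miR-133a-3p and 15 and 1 for miR-9a-5p. Of the pancreas list the acinar miR-216a-5p and miR-217-5p were near 0 (3 lean and 1 colesevelam counts, and 3 and 0), while miR-375-3p, which gut and other epithelia also hold, had a lean median of 1298 CPM and is described among the falls.

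The sequences of the miRNAs on which the results turn are shown 5′ to 3′ as the deposited table lists them, with T for U and the seed in capitals. Positions are those of the table, for which the sources used here give no build. The first set, which was higher in colesevelam libraries, holds 2 members of the miR-183 cluster, whose seeds differ, and 3 pairs that share a seed within the pair. miR-10a-5p is a near relative of miR-99, and of the miR-21 precursor the minor arm is shown.
miR-182: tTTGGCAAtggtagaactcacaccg
miR-183-5p: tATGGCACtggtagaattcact
miR-146a-5p: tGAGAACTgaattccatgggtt
miR-146b-5p: tGAGAACTgaattccataggctgt
miR-99a-5p: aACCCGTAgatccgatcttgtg
miR-99b-5p: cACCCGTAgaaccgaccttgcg
miR-23a-3p: aTCACATTgccagggatttcc
miR-23b-3p: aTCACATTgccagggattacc
miR-10a-5p: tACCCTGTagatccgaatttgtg
miR-21-3p: cAACAGCAgtcgatgggctgtc

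The second set was lower in colesevelam libraries, and no 2 of these share a seed.
miR-28-5p: aAGGAGCTcacagtctattgag
miR-30c-5p: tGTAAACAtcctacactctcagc
miR-423-5p: tGAGGGGCagagagcgagactttt
miR-200b-3p: tAATACTGcctggtaatgatgac
miR-142-5p: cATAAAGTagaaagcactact
miR-150-5p: tCTCCCAAcccttgtaccagtg
For 98 of the 112 tested miRNAs a mature sequence of the same name was found in RefSeq (GRCr8), and all 98 were identical to the deposited one. The 24 called miRNAs carried 21 different seeds. In each of the 3 seed pairs shown, miR-146, miR-99 and miR-23, both tested members rose. The seed of miR-30c-5p is shared by 3 other tested miRNAs that did not pass, that of miR-181c-5p by 2 and that of miR-101a-3p by 1. Reads can be shared within such pairs: miR-146a-5p and miR-146b-5p match at 20 bases, miR-23a-3p and miR-23b-3p at 20 of 21, and miR-99a-5p and miR-99b-5p at 18 of 22.

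Within the miRNA pool of a library, 24 of 112 miRNAs (21.4%) differed between colesevelam and lean libraries, 13 higher (11.6%) and 11 lower (9.82%), at a Benjamini-Hochberg (BH) adjusted p of 0.05 in the quasi-likelihood test of edgeR; 44 had an unadjusted p under 0.05. Apart from the uneven miR-6215, the largest rises were in the fibrosis- and injury-linked miR-21-3p, the sterol-linked miR-183-5p and miR-182, and the inflammation-linked miR-146b-5p. The largest falls were in miR-423-5p, the epithelial miR-200b-3p, miR-320-3p and miR-28-5p. In 9 miRNAs (8.04% of those tested), all of them called, every colesevelam library lay on one side of every lean library. These were 6 rises (5.36%: miR-182, miR-183-5p, miR-21-3p, miR-146b-5p, miR-146a-5p and miR-191a-5p) and 3 falls (2.68%: miR-28-5p, miR-30c-5p and miR-181c-5p). The median log2 fold change over all 112 was −0.08. Scaled by library totals alone the split was 11 higher and 18 lower, and with miR-192-5p left out it was 9 higher and 19 lower. In the authors' deposited table, for which the sources used here do not give the scaling, all 182 log2 fold changes listed for colesevelam against lean were negative, from −5.20 to −0.45 with a median of −2.87. Higher and lower here are therefore differences in composition, and no statement is made about the amount of a miRNA per liver.

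**Figure D1:**
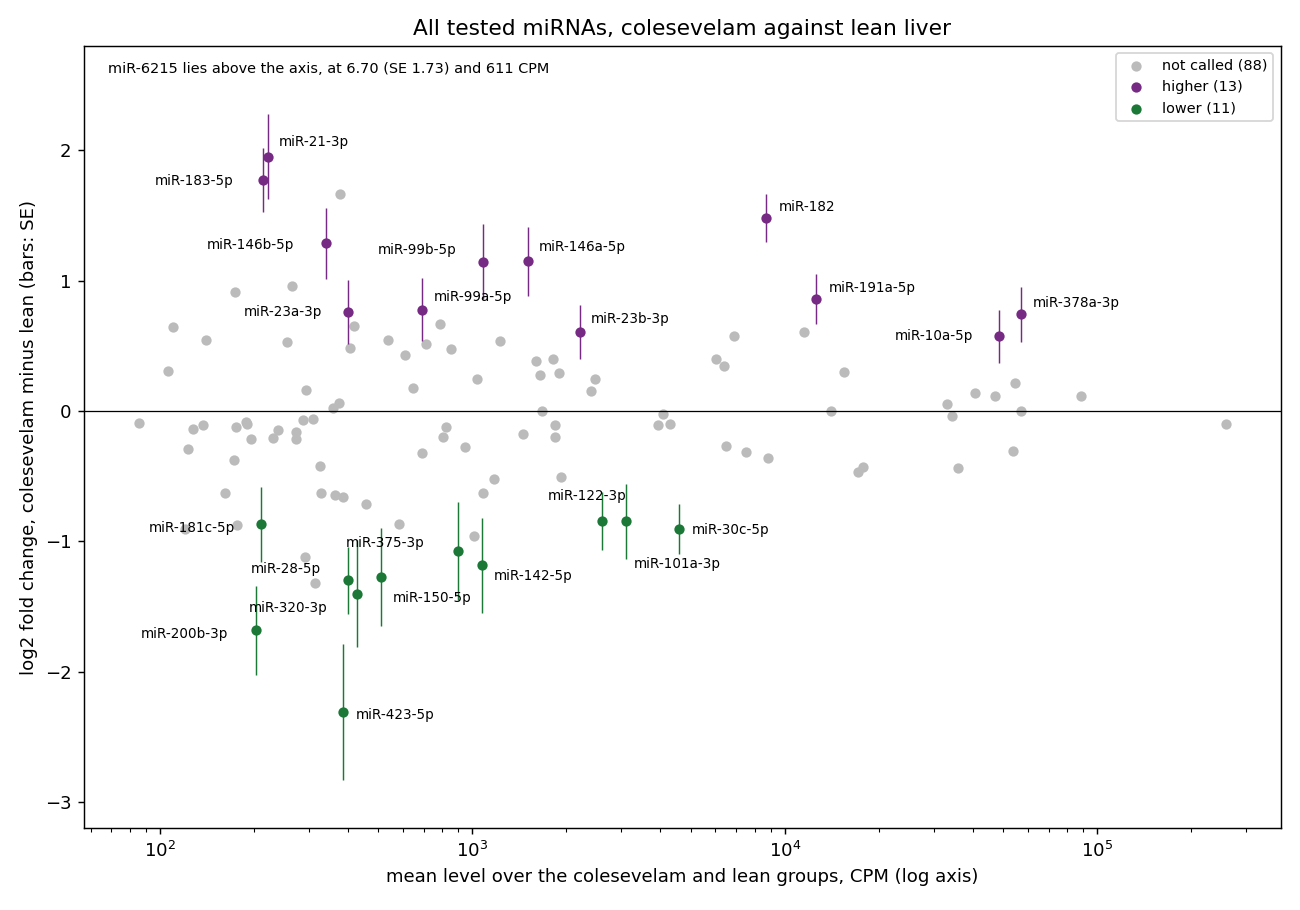
Log2 fold change (colesevelam minus lean, bars show the standard error) of the 112 tested miRNAs against the mean of their 2 group levels in CPM on a log axis; purple marks the 13 called higher, green the 11 called lower and grey the 88 not called. Calls span low and high levels, from miR-200b-3p and miR-183-5p near 200 CPM to miR-378a-3p and miR-10a-5p, whose lean medians are 42915 and 36923 CPM, and miR-6215 lies above the axis at 6.70.

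Of 6 sterol-linked miRNAs listed, 2 could be tested, neighbours of one cluster, and both rose, beside 11.6% of all tested miRNAs called higher. miR-182 and miR-183-5p lie on the minus strand of chromosome 4, separated by 3830 bases (chr4:57221577-57221601 and chr4:57225432-57225453), in the cluster that SREBP-2 is known to activate. miR-182 ran from 3435 over a median of 4485 to 6448 CPM in lean libraries and from 10517 over 13217 to 14184 CPM in colesevelam libraries. The lowest colesevelam library thus held more than the highest lean one, and the difference on the log2 scale was 1.48 ± 0.19 (SE, edgeR adjusted p = 7.29e-06), or 2.79-fold. miR-183-5p ran from 66.1 over 94.1 to 145 CPM in lean and from 198 over 354 to 379 CPM in colesevelam libraries, again without overlap (1.77 ± 0.24, edgeR adjusted p = 1.44e-05). It rests on few reads, 7 to 33 counts per colesevelam library. The ratio of the 2 miRNAs within a library differed by −0.32 on the log2 scale between the groups (exact permutation p = 0.128, BH-adjusted p = 0.176 over 11 neighbour pairs). Of the other listed members miR-96-5p had 16 lean and 2 colesevelam counts in all, miR-33-5p, which lies within the SREBP-2 gene, had 31 and 2, miR-33-3p 12 and 0, and miR-183-3p 2 and 1, too few to test. These sums are not scaled, and mean totals were 328766 counts in lean and 66278 in colesevelam libraries. Relative to those totals all of these but miR-183-3p were lower in colesevelam libraries, on very few counts. In vehicle libraries miR-182 ran from 1952 to 3466 CPM and miR-183-5p from 41.5 to 79.7 CPM, at log2 differences from lean of −0.88 ± 0.19 and −0.80 ± 0.30 in the same fit, so for both miRNAs the mean was highest in colesevelam and lowest in vehicle libraries; the vehicle difference from lean was called for miR-182 (edgeR adjusted p = 0.00362) and not for miR-183-5p (0.119).

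In the inflammation-linked list 3 of 4 tested members rose and none fell, beside 11.6% of all tested miRNAs called higher. The 4 are miR-146a-5p, miR-146b-5p and both arms of the miR-21 precursor, of which only the minor arm miR-21-3p rose. They are thus not 4 separate observations. miR-146a-5p and miR-146b-5p, which are induced by NF-kB and target adaptors upstream of it, rose by similar amounts. miR-146a-5p went from 693 to 1173 CPM in lean (median 965) and from 1580.4 to 2697 CPM in colesevelam libraries (median 1999), a difference of 1.15 ± 0.27 on the log2 scale (edgeR adjusted p = 0.00322). miR-146b-5p, lower in abundance, went from 104 to 277 CPM (median 197) and from 294 to 662 CPM (median 491), at 1.28 ± 0.27 (edgeR adjusted p = 0.00167). Neither pair of groups overlapped, and in vehicle libraries the 2 miRNAs stood close to lean (log2 differences of 0.03 ± 0.27 and 0.01 ± 0.29). miR-155-5p, with 12 lean and 7 colesevelam counts, was not tested.

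Of the miR-21 precursor 1 arm was called. The minor arm miR-21-3p (chr10:76197136-76197157, plus strand) ran from 38.2 over 100.2 to 116 CPM in lean and from 180.5 over 329 to 621 CPM in colesevelam libraries, with no overlap, at 1.95 ± 0.32 (edgeR adjusted p = 0.000168). The main arm miR-21-5p, one of the 4 most abundant miRNAs, stood at 57014 ± 13478 CPM in lean and 57010.4 ± 12114 CPM in colesevelam libraries (mean ± SD, n = 6), a difference of 0.00 ± 0.24. Vehicle libraries held 359 to 789 CPM of miR-21-3p, 2.73 ± 0.32 above lean. The colesevelam level lay between the 2 other groups, and its difference from vehicle, −0.78 ± 0.31, did not pass (edgeR adjusted p = 0.136).

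Among the related families miR-10, miR-99, miR-100 and miR-125, several of which lie in Hox or let-7 clusters, 3 of 6 tested members rose, against 11.6% of all tested miRNAs, and none fell. miR-99b-5p ran from 490.1 over 651 to 857 CPM in lean and from 855 over 1427 to 2435 CPM in colesevelam libraries, so that 1 lean library, at 857 CPM, barely passed the lowest colesevelam library, at 855 CPM (1.15 ± 0.29, edgeR adjusted p = 0.00668). miR-99a-5p went from a median of 531 to 855 CPM (0.78 ± 0.24, edgeR adjusted p = 0.0236), and the abundant miR-10a-5p, a Hox-cluster miRNA, from 36923 to 55173 CPM (0.57 ± 0.20, edgeR adjusted p = 0.0458). The 3 others were at 0.54 ± 0.40 for miR-10b-5p, 0.29 ± 0.24 for miR-125b-5p and 0.28 ± 0.25 for miR-125a-5p. Both weaker calls depended on single libraries. miR-99a-5p missed the threshold without colesevelam 4, lean 1 or lean 5 (highest edgeR adjusted p = 0.0571), and miR-10a-5p passed only without colesevelam 1 or lean 6 (highest edgeR adjusted p = 0.109). With libraries of one label number summed, neither passed (edgeR adjusted p = 0.124 and 0.177). In vehicle libraries the log2 differences from lean were 0.15 ± 0.29 for miR-99b-5p, −0.24 ± 0.25 for miR-99a-5p and −0.20 ± 0.20 for miR-10a-5p.

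miR-191a-5p, an abundant miRNA found in many tissues, ran from 7281 over 9168 to 10035 CPM in lean and from 11778 over 14399 to 24429 CPM in colesevelam libraries, with no overlap (0.86 ± 0.19, edgeR adjusted p = 0.00265). miR-378a-3p, whose gene lies within that of the mitochondrial coactivator PGC-1β, ran from 38540.0 to 47923 CPM in lean and from 42794 to 102652 CPM in colesevelam libraries. Colesevelam 3, the lowest, fell inside the lean range and the other 5 lay above it (0.74 ± 0.21, edgeR adjusted p = 0.0153). Its minor arm miR-378a-5p and the related miR-378b did not pass, at 0.92 ± 0.42 and 0.65 ± 0.26 (edgeR adjusted p = 0.106 and 0.0729). The vehicle level of miR-378a-3p, 74258 ± 21522 CPM, differed from the colesevelam level by −0.05 ± 0.21 (edgeR adjusted p = 0.936).

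miR-23a-3p and miR-23b-3p, encoded with miR-27 and miR-24 in a pair of clusters, rose together: miR-23a-3p from a median of 282 to 436 CPM (0.76 ± 0.25, edgeR adjusted p = 0.0321) and miR-23b-3p from 1680.5 to 2784 CPM (0.60 ± 0.21, edgeR adjusted p = 0.0380). The neighbours encoded with them, miR-27a-3p at −0.66 ± 0.29 and miR-27b-3p at −0.43 ± 0.19, did not pass. miR-24-3p was at 0.65 ± 0.30 (edgeR adjusted p = 0.106). Both miR-23 calls rested on single libraries: miR-23a-3p missed the threshold without colesevelam 1 or 6 or lean 1, 2, 4 or 5, and miR-23b-3p without colesevelam 5 or lean 1, 2, 4 or 5 (highest edgeR adjusted p = 0.06996 and 0.0881). Neither passed with libraries of one label number summed (edgeR adjusted p = 0.0692 and 0.177).

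The remaining rise, miR-6215, was carried by few libraries. Colesevelam 1 held 6096 CPM and colesevelam 3 held 977 CPM, while the other 4 colesevelam libraries lay between 10.03 and 80.3 CPM and the lean libraries between 0 and 60.6 CPM. Its log2 fold change of 6.70 ± 1.73 (edgeR adjusted p = 0.0121) rests on those 2 libraries, and the groups overlapped. The call was lost with limma-voom and without the 2 deepest lean libraries (highest adjusted p = 0.0657). It could be tested in 24 of the 25 alternatives. In the fit of the 12 compared libraries alone it did not have enough counts to be tested, so its place among the tested miRNAs rests on the vehicle libraries. In vehicle libraries miR-6215 ran from 49.9 over 2339 to 7009 CPM, and 5 of these 6 lay at 784 CPM or above; the log2 difference of vehicle from lean was 7.92 ± 1.76 (edgeR adjusted p = 0.01004).

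**Figure D2:**
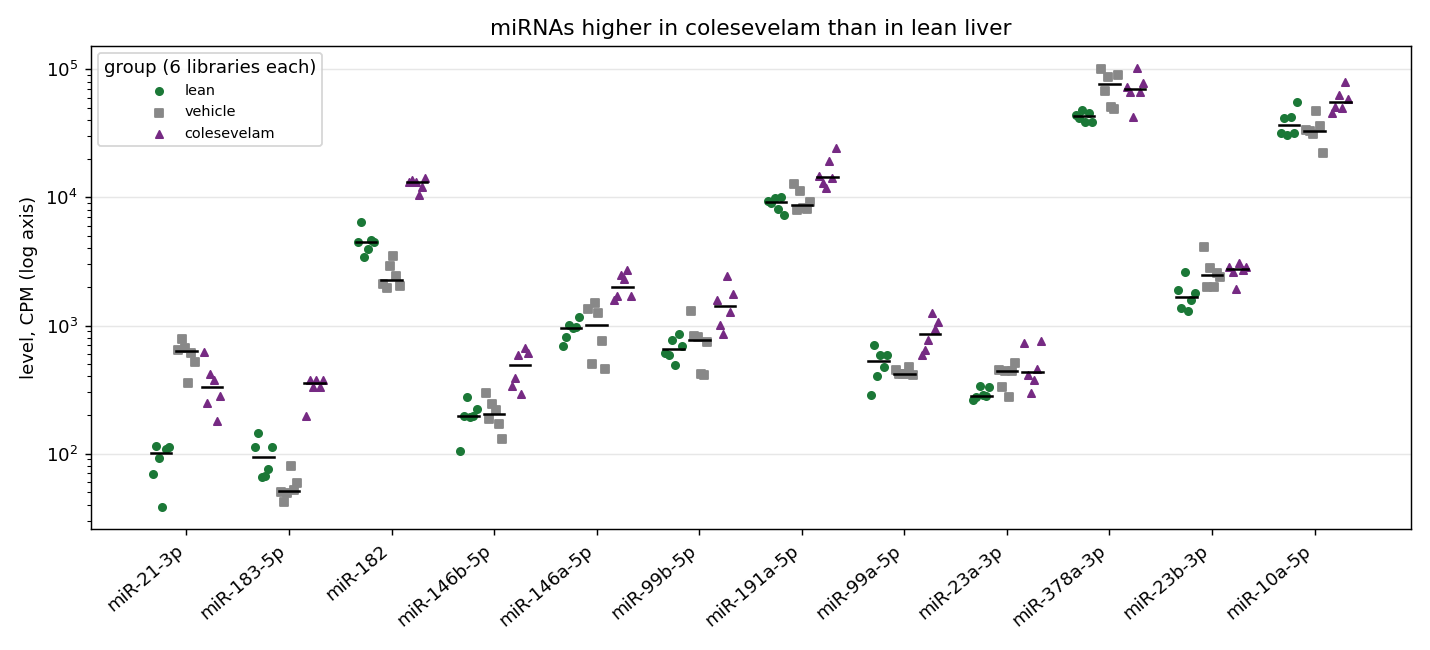
Level of each miRNA called higher, in CPM on a log axis, with 1 point per library (circles lean, squares vehicle, triangles colesevelam, 6 libraries each) and a bar at the group median, in order of the fold change. miR-6215, with counts of 0, is left out. miR-182 and miR-183-5p show the colesevelam points above all others and the vehicle median below the lean one, and miR-21-3p shows colesevelam between lean and vehicle.

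Among the falls, miR-28-5p (chr11:81345188-81345209, plus strand), whose gene lies in an intron of Lpp, ran from 383 over 505 to 833 CPM in lean and from 133 over 247 to 321 CPM in colesevelam libraries without overlap (−1.30 ± 0.26, edgeR adjusted p = 0.00117). miR-30c-5p, of the abundant hepatic miR-30 family, ran from 4404 over 5912 to 8101 CPM and from 2569 over 3038 to 3923 CPM, also without overlap (−0.91 ± 0.20, edgeR adjusted p = 0.00200). It was the 1 of 4 tested miR-30 main arms that fell; miR-30d-5p stood at −0.47 ± 0.18 (edgeR adjusted p = 0.0634), miR-30e-5p at −0.31 ± 0.28 and the most abundant, miR-30a-5p, at 0.06 ± 0.18. miR-181c-5p ran from 217 to 348 CPM in lean and from 56.8 to 201 CPM in colesevelam libraries (−0.87 ± 0.29, edgeR adjusted p = 0.0352), on 3 to 20 counts per colesevelam library. Although the groups did not overlap, its call was lost without colesevelam 1, 4 or 6 or lean 2 (highest edgeR adjusted p = 0.0914) and with libraries of one label number summed (edgeR adjusted p = 0.0943). Its seed-sharing relatives miR-181a-5p and miR-181b-5p stood at −0.00 ± 0.35 and −0.06 ± 0.40.

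Both tested members of the leukocyte list fell, where 9.82% of all tested miRNAs fell. miR-142-5p, a miRNA of blood cells, ran from 696 over 1186 to 2610.1 CPM in lean and from 395 over 588 to 1193 CPM in colesevelam libraries (−1.18 ± 0.36, edgeR adjusted p = 0.0236). miR-150-5p, which marks mature lymphocytes, ran from 206 over 772 to 1012 CPM and from 122 over 326 to 395 CPM (−1.27 ± 0.37, edgeR adjusted p = 0.0179). In each, at least 1 library lay inside the other group's range. The 5 listed leukocyte miRNAs summed to between 0.167% and 0.325% of counts in lean and to between 0.0794% and 0.125% in colesevelam libraries. miR-223-3p had 104 lean and 8 colesevelam counts, miR-142-3p 63 and 1 and miR-155-5p 12 and 7, too few to test. These sums are not scaled, and mean totals were 328766 counts in lean and 66278 in colesevelam libraries. Relative to those totals miR-155-5p was higher and the other untested members were lower in colesevelam libraries. In a fit with no filter on low counts miR-142-3p was called lower (−3.11 on the log2 scale, edgeR adjusted p = 0.0383). In bulk liver, fewer cells of a type and less RNA per cell cannot be told apart. The call of miR-142-5p was lost without colesevelam 1, 2, 4 or 6 or lean 2 (highest edgeR adjusted p = 0.0908). That of miR-150-5p was kept with any 1 library left out, but was lost with upper-quartile factors, without the 2 deepest lean libraries, and with libraries of one label number summed (edgeR adjusted p = 0.0692). Beside lean, vehicle libraries stood at −1.27 ± 0.36 for miR-142-5p and at −0.00 ± 0.34 for miR-150-5p.

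miR-200b-3p, a miRNA of epithelia such as bile ducts, fell from 124 to 410 CPM in lean (median 337) to between 53.6 and 187 CPM in colesevelam libraries (median 87.8), or −1.68 ± 0.34 on the log2 scale (edgeR adjusted p = 0.00137). The colesevelam values rest on 3 to 9 counts per library, close to what a count of 0 allows, so the size of the fall is uncertain, and the groups overlapped through lean 6 and colesevelam 4. The other listed epithelial miRNAs had 107 lean and 4 colesevelam counts for miR-200a-3p, 154 and 13 for miR-141-3p, 169 and 10 for miR-429 and 20 and 11 for miR-200c-3p, too few to test. These sums are not scaled, and mean totals were 328766 counts in lean and 66278 in colesevelam libraries. Relative to those totals miR-200c-3p was higher in colesevelam libraries and the other untested members were lower. In a fit with no filter on low counts miR-200a-3p was called lower (−2.40 on the log2 scale, edgeR adjusted p = 0.0142). miR-375-3p, a miRNA of endocrine and gut epithelium, fell from a median of 1298 to 487 CPM (−1.07 ± 0.37, edgeR adjusted p = 0.0433), with lean 6 below all colesevelam libraries at 330.2 CPM. With 1 library left out, that call was kept only without colesevelam 4 or 6 or lean 6 (highest edgeR adjusted p = 0.0908), and it was lost with libraries of one label number summed (edgeR adjusted p = 0.176). Vehicle libraries differed from lean by −1.94 ± 0.35 in miR-200b-3p and by −1.07 ± 0.37 in miR-375-3p.

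miR-423-5p had the largest fall of the called miRNAs, from 196 to 1334 CPM in lean (median 564) to 60.2 to 310.4 CPM in colesevelam libraries (median 107), or −2.31 ± 0.52 (edgeR adjusted p = 0.00265), on 4 to 11 counts per colesevelam library. miR-320-3p, made without the usual Drosha step, went from 235 to 1155 CPM (median 565) to 111 to 357 CPM (median 246), or −1.40 ± 0.41 (edgeR adjusted p = 0.0179). The lean libraries of both were widely spread and overlapped the colesevelam range. miR-320-3p missed the threshold without lean 5 (edgeR adjusted p = 0.0521), and also with upper-quartile factors and with limma-voom.

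From the hepatocyte-rich list 1 of 8 tested members fell, the minor arm miR-122-3p; with 9.82% of all tested miRNAs lower, that count is near the background. It ran from 2323 over 3168 to 5047 CPM in lean and from 1254 over 1768 to 2991 CPM in colesevelam libraries, with 1 colesevelam library, colesevelam 1, inside the lean range (−0.85 ± 0.22, edgeR adjusted p = 0.00883). The main arm miR-122-5p, at 0.12 ± 0.32, did not pass (45208 ± 26020 CPM in lean and 49019 ± 12296 CPM in colesevelam libraries, n = 6). The last fall was that of miR-101a-3p, from a median of 3714 to 2282 CPM (−0.85 ± 0.29, edgeR adjusted p = 0.0380). Its call was lost without colesevelam 1, 2, 4 or 6 or lean 2, 4 or 6 (highest edgeR adjusted p = 0.125) and with libraries of one label number summed (edgeR adjusted p = 0.0692), and miR-101b-3p, which matches it at 20 of 21 bases, stood at −0.36 ± 0.25.

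**Figure D3:**
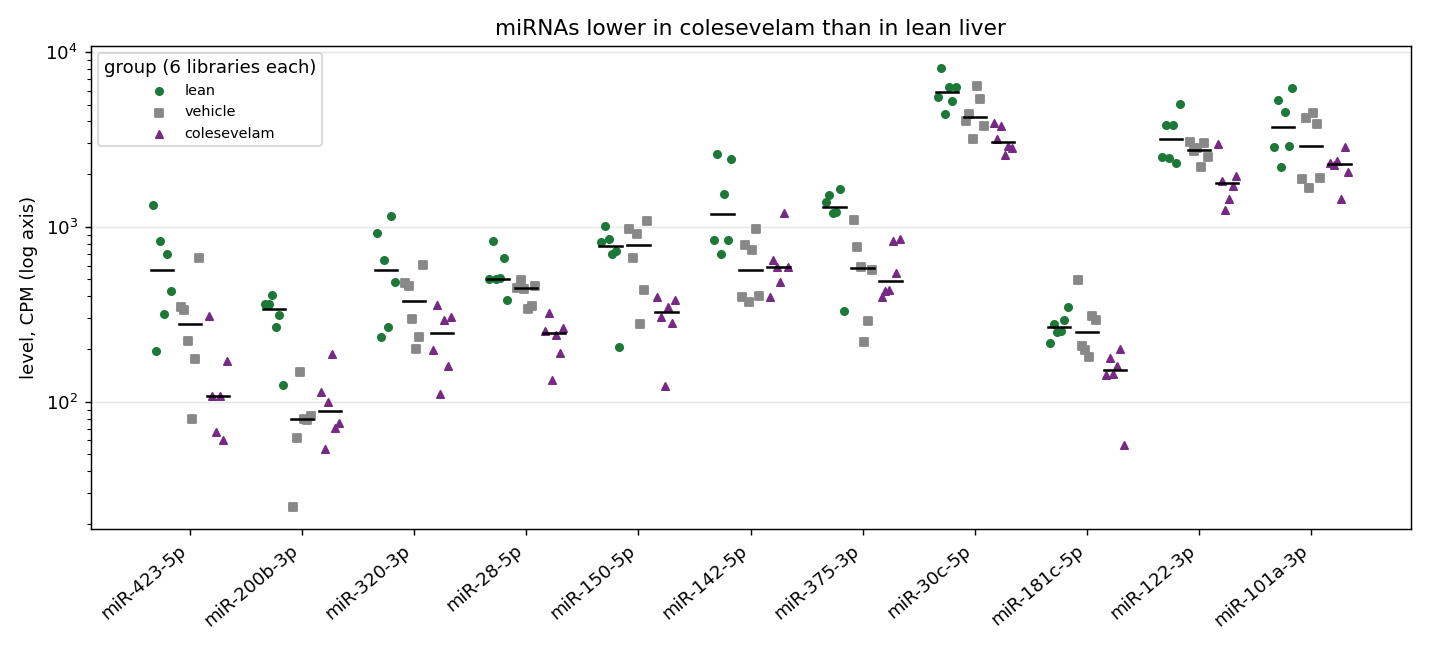
Level of each miRNA called lower, in CPM on a log axis, with 1 point per library (circles lean, squares vehicle, triangles colesevelam, 6 libraries each) and a bar at the group median, in order of the fold change. The groups are fully apart in miR-28-5p, miR-30c-5p and miR-181c-5p, whereas the lean points of miR-423-5p and miR-320-3p spread down into the colesevelam range.

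A ratio of 2 miRNAs within a library does not depend on the scaling between libraries. It was taken between the arms of the 13 precursors with both arms tested, as log2 of 5p over 3p counts with 0.5 added to each. The ratio differed in 3 of the 13 (23.1%): those of miR-21, miR-28 and miR-423. For miR-21 the log2 ratio ran from 8.60 to 10.6 in lean and from 6.37 to 8.36 in colesevelam libraries, a difference of −1.96 (exact permutation p = 0.00216, the smallest possible, BH-adjusted p = 0.0141). For miR-28 it ran from −3.55 to −2.70 in lean and from −5.16 to −3.94 in colesevelam libraries, a difference of −1.64 (exact permutation p = 0.00216, BH-adjusted p = 0.0141). The 5p arm of miR-28 fell while its abundant 3p arm stood at 0.40 ± 0.22. Neither pair of groups overlapped in these 2 ratios. For miR-423 the difference was −1.25, with overlap (exact permutation p = 0.00649, BH-adjusted p = 0.0281), and it passed only with all 12 libraries or without colesevelam 6 or lean 2 (highest BH-adjusted exact permutation p = 0.0657). The miR-122 ratio differed by 1.13 without passing (exact permutation p = 0.104), since the lean libraries alone ran from 2.10 to 5.05.

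The same ratio was taken between neighbouring miRNA genes, for the 11 pairs of tested miRNAs of different precursors on one strand within 10000 bases, a family chosen after the levels had been seen. miRNAs that the table lists at more than 1 location were left out, since their reads cannot be given to one gene. It differed in 4 of 11 (36.4%), all with a BH-adjusted exact permutation p of 0.0238. miR-23a-3p over miR-27a-3p, separated by 143 bases on chromosome 19, was 2.58-fold higher in colesevelam libraries (log2 difference 1.37, exact permutation p = 0.00433). miR-23b-3p over miR-27b-3p, 221 bases apart on chromosome 17, was 2.10-fold higher (1.07, exact permutation p = 0.00866). So in both clusters the share of miR-23 relative to miR-27 was higher, although no single group pair was free of overlap. The 2 ratios may not be independent, since reads can be shared between the clusters. miR-23a-3p and miR-23b-3p match at 20 of 21 bases, and miR-27a-3p and miR-27b-3p are also nearly alike in sequence. With miRNAs of several locations included, the family held 29 pairs, of which 7 passed (24.1%). Those were the same 4, at BH-adjusted exact permutation p-values up to 0.0359, and 3 more, each with no overlap: miR-24-3p over miR-27a-3p (log2 difference 1.39), let-7a-5p over let-7d-5p (0.90) and miR-30c-5p over miR-30e-3p (−0.80), each at a BH-adjusted exact permutation p of 0.0209. In the cluster of miR-99b, let-7e and miR-125a on chromosome 1, let-7e-5p over miR-99b-5p was lower by 2.51-fold (exact permutation p = 0.00866) and miR-125a-5p over miR-99b-5p by 1.71-fold (exact permutation p = 0.00433). The vehicle means of these 4 log2 ratios were 0.49, −2.65, −1.20 and 1.09, beside −0.64, −3.55, −1.03 and 1.09 in lean and 0.72, −2.48, −2.35 and 0.32 in colesevelam libraries. Vehicle lay near colesevelam in the 2 miR-23 ratios and near lean in the 2 miR-99b ratios.

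**Figure D4:**
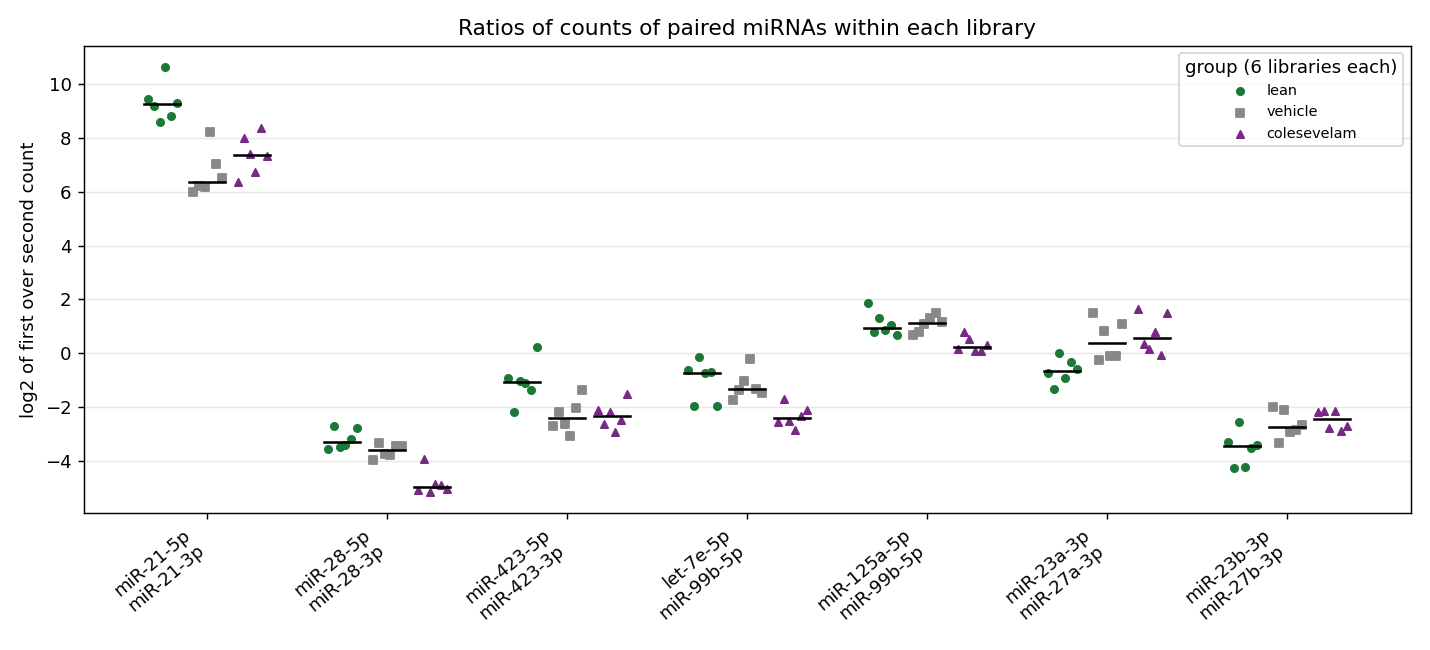
Log2 ratio of the counts of 2 miRNAs within each library, for the 3 arm pairs and the 4 neighbour pairs that passed, with 1 point per library (circles lean, squares vehicle, triangles colesevelam, 6 libraries each) and a bar at the group median. The colesevelam and lean points are fully apart for the arms of miR-21 and miR-28 and overlap in the other 5 pairs.

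Libraries of one group also differed from one another in how a miRNA's level went with its GC content. Against the mean of all 18 libraries, the slope of the log2 level ran from −0.35 to 0.19 log2 units per 10 percentage points of GC in lean and from −0.34 to 0.22 in colesevelam libraries. It was positive in 3 libraries of each group (lean 1, 3 and 5 and colesevelam 1, 4 and 6) and negative in the other 3. The spread of several called miRNAs followed these sets, which were formed from the data and get no test. Within the libraries of positive slope miR-423-5p, with 54.2% GC, ran from 698 to 1334 CPM in lean and from 107 to 310.4 CPM in colesevelam, and within those of negative slope from 196 to 430.4 CPM and from 60.2 to 107 CPM, so that the groups did not overlap in either set. miR-142-5p, with 33.3% GC, ran the other way: 696 to 840.2 CPM in lean against 395 to 587 CPM in colesevelam at positive slope, and 1532 to 2610.1 CPM against 588 to 1193 CPM at negative slope. All 24 called miRNAs differed in one direction in both sets, as did 83 of the 112 tested. In 15 of the 24 the groups did not overlap in either set. The same held for 1 more tested miRNA, miR-27a-3p, so that 16 (14.3%) were separate in this way. These counts describe the libraries on which the calls were made and do not replicate the calls. The 9 called miRNAs without overlap over all 12 libraries could not overlap within either set. Some libraries of one label number also lay in different sets, so the sets may not be independent. The 2 deepest libraries of each group, lean 2 and 4 and colesevelam 3 and 5, all lay in the set of negative slope. The falls of miR-122-3p and miR-101a-3p were uneven, with log2 differences of −0.26 and −0.46 at positive and −1.41 and −1.10 at negative slope. With the slope removed from each library, all 24 calls were kept and 35 miRNAs were called, 16 higher and 19 lower. The slopes were estimated from these same levels and then taken as known, so this fit is not an independent check.

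**Figure D5:**
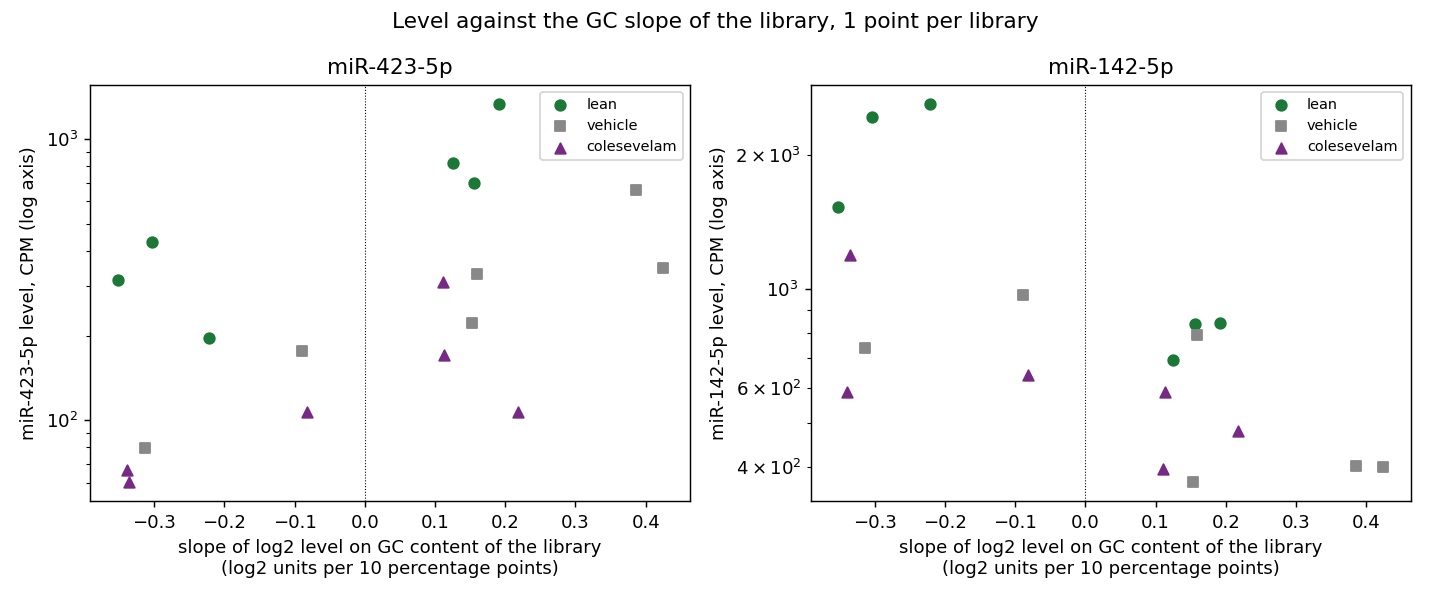
Level of miR-423-5p (left) and miR-142-5p (right) in CPM on a log axis against the GC slope of the library in log2 units per 10 percentage points, with 1 point per library (circles lean, squares vehicle, triangles colesevelam). On each side of a slope of 0 every lean point lies above every colesevelam point in both miRNAs.

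The other lists gave few further calls, against a background of 21.4%. In the bile-acid-linked list 1 of 6 fell, miR-122-3p again, while miR-22-3p (0.12 ± 0.22), miR-194-5p (−0.02 ± 0.19), miR-29a-3p (0.25 ± 0.17) and miR-199a-3p (−0.72 ± 0.28, edgeR adjusted p = 0.0668) did not pass. Of its untested members miR-34a-5p had 29 colesevelam and 24 lean counts in all, although the colesevelam libraries held fewer reads, 14 of the 29 in colesevelam 3. It was called higher in the fit with no filter on low counts (2.28, edgeR adjusted p = 0.00762). That fit called 11 higher and 18 lower, 10 of them outside the 24. Among other listed miRNAs it added miR-200a-3p, miR-142-3p and miR-19b-3p, all lower. miR-144-3p had 157 lean and 15 colesevelam counts and miR-22-5p 109 and 10. The hepatocyte miRNAs miR-192-5p, miR-148a-3p and miR-802-5p were at −0.10 ± 0.26, −0.30 ± 0.29 and −0.20 ± 0.31, and the hepatocyte-rich list as a whole had a median of −0.15 beside −0.08 for all tested miRNAs. In the insulin and glucose list 1 of 11 fell (9.82% of all tested miRNAs did), miR-375-3p, with a median of 0.06; miR-103-3p stood at 0.53 ± 0.20 (edgeR adjusted p = 0.0634), miR-107-3p at 0.06 ± 0.23 and miR-26a-5p at 0.22 ± 0.16. No member passed among 9 let-7 miRNAs (median 0.30, from −0.52 to 0.61), 4 of the miR-15 and miR-16 group, 4 of the miR-17-92 clusters, 3 stromal and 2 endothelial miRNAs and 1 erythroid one. Of these miR-19b-3p stood at −1.32 ± 0.48 (edgeR adjusted p = 0.0513), miR-143-3p at 0.14 ± 0.18, miR-126a-3p at −0.18 ± 0.22 and the red-cell miRNA miR-451-5p at −0.63 ± 0.42. miR-3068-3p, in no list, was the next in order to miss the threshold (1.67 ± 0.62, edgeR adjusted p = 0.0556). It ran from 44.4 to 129 CPM in 5 lean libraries but stood at 702 CPM in lean 6, and from 208 to 993 CPM in colesevelam libraries.

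Vehicle against lean and colesevelam against vehicle come from the same fit and share libraries with the comparison above, so their values are placed beside it without a test of likeness; 6.25% of the 112 miRNAs were called in the first (3.57% higher, 2.68% lower) and 10.7% in the second (7.14% higher, 3.57% lower). Of the 11 falls, 7 had no call in either of these. Among them miR-423-5p was at −1.03 ± 0.47 in vehicle and −2.31 ± 0.52 in colesevelam against lean, miR-320-3p at −0.70 ± 0.39 and −1.40 ± 0.41, and miR-30c-5p at −0.40 ± 0.19 and −0.91 ± 0.20. In these 3 the vehicle mean lay between those of lean and colesevelam, as it did in miR-122-3p (−0.30 ± 0.22 and −0.85 ± 0.22) and in miR-101a-3p (−0.42 ± 0.28 and −0.85 ± 0.29). For miR-28-5p the values were −0.43 ± 0.24 and −1.30 ± 0.26, and its difference between the 2 obese groups was called (−0.87 ± 0.26, edgeR adjusted p = 0.0340). For miR-375-3p they were −1.07 ± 0.37 and −1.07 ± 0.37, and for miR-181c-5p 0.04 ± 0.27 and −0.87 ± 0.29. The vehicle level of miR-181c-5p, 281 ± 119 CPM, was thus near that of lean, 273 ± 44.8 CPM (mean ± SD, n = 6), and that of miR-375-3p was near the colesevelam level.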

How the data were processed

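RNA of rat liver was sequenced as small RNA libraries. Frozen liver was extracted with a Norgen kit and libraries were made with an Illumina TruSeq RNA kit, per the labels' protocols, which do not state how small RNA was selected. The deposited table of the authors gives, for 401 mature miRNAs, an estimated count in each library with no scaling; 297 of its 7218 values are not whole numbers. Bowtie 1.1.2 and DESeq2 1.18.1 are listed, per the submitters' processing notes. How reads were trimmed and counted, and on which build, is not given in the sources used here. The file headers name further columns, in which the authors deposited mean scaled counts (a signal), log2 fold changes, p-values and a significance mark for each of their comparisons. Of these the log2 fold changes for colesevelam against lean are quoted as a range, and no result rests on them.

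Values were rounded to whole counts. edgeR 4.0.16 in R 4.3.3 was run with filterByExpr (minimum count 10, minimum total 15), TMM scaling and the quasi-likelihood F test with robust dispersions, on all 18 libraries so that the groups share one estimate of spread; p-values were BH-adjusted over the 112 miRNAs kept. SE is the log2 fold change divided by the root of F, and the biological coefficient of variation was 36.2%. Totals and ratios were compared with an exact permutation test, two-sided, that enumerates its 924 arrangements. The fit was tested on simulated data. Libraries within a group differed beyond counting noise (chi-square per degree of freedom at least 5.73), which technical differences can also give. Each library was counted once, although whether libraries of one label number come from separate animals is not stated.

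Named were all called miRNAs, the 3 next by adjusted p, miRNAs fixed by name and members of 21 lists drawn from general knowledge. Members and lists were chosen with earlier results of these data known. Other scalings, tools, filters and sets of libraries were tried. Floors cover counting error only, since reads carry no molecular identifiers.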

Additional observations from a re-analysis of the deposited data

Results flagged for a closer look

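Among the called miRNAs, the ratios that passed and the library totals, a library stood apart from the other 5 libraries in 6 of 64 groups examined, where chance gives about 1 in 20. miR-183-5p stood at 198 CPM in colesevelam 1, below 331 to 379 CPM in the other 5. miR-6215 stood at 6096 CPM in colesevelam 1, above 10.03 to 977 CPM, and at 60.6 CPM in lean 1, above 0 to 12.7 CPM. miR-142-5p stood at 1193 CPM in colesevelam 5, above 395 to 643 CPM, and miR-375-3p at 330.2 CPM in lean 6, below 1202 to 1638 CPM. The log2 ratio of miR-28-5p over miR-28-3p stood at −3.94 in colesevelam 2, above −5.16 to −4.85 in the others and still below every lean library.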

How the results depend on the processing

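The call count over all miRNAs was 24, with 13 higher and 11 lower. No called miRNA changed direction in any alternative. With each library left out in turn, 17 to 32 miRNAs were called, 9 to 18 higher and 7 to 14 lower; the lowest count came without lean 2 and the highest without lean 6. With upper-quartile factors 7 were lower, with library totals only 18, with DESeq2 18, without a filter on low counts 18, with miR-192-5p left out 19 and with the GC slope removed 19. A fit of the 12 compared libraries alone called 8 higher, and one without the 2 deepest lean libraries, chosen after the data were seen, called 7 higher. Calls were 12 higher and 13 lower with DESeq2 size factors. 11 of the 24 calls were kept in all 25 alternatives: miR-182, miR-183-5p, miR-21-3p, miR-28-5p, miR-200b-3p, miR-146b-5p, miR-30c-5p, miR-191a-5p, miR-423-5p, miR-146a-5p and miR-122-3p. miR-99b-5p and miR-378a-3p lost theirs only without the 2 deepest lean libraries (edgeR adjusted p = 0.0528 and 0.0717). miR-193a-3p, which was not tested in the main fit, was called whichever colesevelam library was left out, and without lean 1, 3, 4 or 5. It was also called with the filter at a mean of 50 CPM, with libraries of one label number summed and without the 2 deepest lean libraries. With no filter on low counts it was lower (−2.32, edgeR adjusted p = 0.00305), on 0 to 4 counts per colesevelam library.

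With the title's sample number as a replicate block 20 miRNAs were called, 19 of them among the 24, 12 higher and 8 lower. The numbers do not pair the libraries: same-numbered lean and colesevelam libraries correlated over 0.1 in 1 of 6 pairs (from −0.59 to 0.44), and 2 of 12 libraries correlated best with their own number. With libraries of one label number summed 17 were called, 16 of them among the 24. The 8 calls lost were those of miR-150-5p, miR-99a-5p, miR-23a-3p, miR-23b-3p, miR-181c-5p, miR-101a-3p, miR-375-3p and miR-10a-5p. The difference in log2 total ran from −2.28 to −1.69 with a library left out, and 2 to 3 arm ratios and 4 to 5 neighbour ratios passed. With miRNAs of several locations included, chosen after the data were seen, 7 neighbour ratios passed of 29 in place of 4 of 11. A fit at matched depth was not run. Only 1 library of each group lies in the shared range of totals, and counts were not thinned to a common depth. A count of 0 allows 56.4 CPM on average in colesevelam libraries and 14.5 CPM in lean ones, which limits the low miRNAs. With upper-quartile factors the median log2 fold change of all tested miRNAs was 0.02, against −0.08.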
